A study of Macaca fascicularis with 23 samples.

Results

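Cytosolic ribosomal proteins and translation factors were followed in cynomolgus monkey (Cm) pluripotent stem cells (PSCs) and in cultured fetal somatic cells. The members were the genes of the deposited expression table whose name begins with RPL, RPS, EIF or EEF and a digit, or is RPSA, without the ribosomal protein S6 kinases and without names of the LOC type. This rule found 21 of the 8415 genes analysed here, which hold 24.8 to 27.5% of the reads of a library, so that other genes of these families may lie outside them. They were 11 ribosomal proteins (among them RPL5, RPL9, RPL10A, RPL11, RPL22, RPL29 and RPL32 of the large subunit and RPS12, RPS18 and RPS27 of the small subunit), 3 ribosomal protein paralogs (RPL7L1, RPL22L1, RPL39L) and 7 genes with EIF or EEF names (EIF1B, EIF2AK1, EIF2D, EIF3B, EIF4A2, EIF5A2, EEF1E1). The names found by the rule are wider than its label. EIF2AK1 is a kinase of an initiation factor, EEF1E1 is a component of the aminoacyl-tRNA synthetase complex, and no translation elongation factor proper was among the 21. Below, the 7 genes with EIF or EEF names are called factors for short, with EIF2AK1 and EEF1E1 counted among them. A further 13 genes that the table lists under LOC names matched ribosomal protein, initiation factor or elongation factor genes by their gene ID. These were RPL14, RPL15, RPL24, RPS10, RPSA, EIF2A, EIF2B3, EIF2B5, EIF3I, EIF4G1, EIF4G3, EIF4H and EEF1A1, and they are reported as further genes of the pathway, outside the rule.

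The cytosolic ribosome is built from a small and a large subunit, each made of ribosomal RNA and of many ribosomal proteins that are needed in about equal numbers. Initiation factors bring the initiator tRNA, the messenger RNA and the small subunit together and find the start codon, and elongation factors deliver the aminoacyl-tRNAs to the moving ribosome. Ribosomal protein messages are among the most abundant of growing cells, and pluripotent cells are known for rapid growth with a comparatively low rate of translation.

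Expression was measured by SC3-seq, a method that sequences amplified cDNA from its 3′ end, in 23 libraries with 1 library per cell line and medium. The 3 embryonic stem cell (ESC) lines were CMK6, CMK9 and TRSK, and the 4 induced PSC (iPSC) lines had been reprogrammed from cells of 1 female fetus, iPS-L3 and iPS-L6 out of the liver, iPS-S6 and iPS-S12 out of the stomach, each an isolated colony made with plasmids for reprogramming factors and a hairpin against p53. Each line was grown without feeder cells on laminin, in bFGF/KSR medium (primed), in K5cLD medium with 5 chemical compounds, LIF and doxycycline (naïve-like), or in K5c medium, which lacks LIF and doxycycline (differentiated). Naïve-like and differentiated cells carried doxycycline-inducible human KLF2 and NANOG and a GFP reporter, and whether the primed cells sequenced carried them is not given in the sources used here. The remaining 2 libraries were cultured somatic cells, labelled Liver and Stomach, in serum medium with growth factors, without replicates. The 7 lines served as the replicates of a medium, although the 4 iPSC lines share a donor, and the library numbers run by medium, so a batch of preparation and the medium cannot be told apart.

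Depth ranged from 861000 to 7986000 reads per library. Values are in RPM, the reads of a gene scaled to a common library size, and differences are in log2(RPM + 1). Of the 21 PSC libraries, 20 lay nearest to the mean of their own medium over the 2776 expressed genes. The exception was primed CMK9, at a distance of 38.4 from the primed mean and 38.3 from the naïve-like mean. Primed iPS-S12 had the lowest summed RPM of the pluripotency markers in any PSC library, 972. In Liver and Stomach the pluripotency markers summed to 1.76 and 0.973 RPM. In Liver, all 5 of the 18 listed hepatocyte markers that the table holds (AFP, AHSG, ALB, APOA2, TF) were at 0, and the 4 fibroblast and mesenchyme markers in the table summed to 7858 RPM, against 9.55 to 824 RPM in PSCs. Of 5 gastric markers, Stomach had CLDN18 (188 RPM), TFF2 (166 RPM) and TFF1 (89.5 RPM). PGC was at 0 there and MUC1 at 2.92 RPM, within the PSC range of 0 to 4.65 RPM. The fibroblast and mesenchyme markers summed to 10437 RPM in Stomach. These were 4 of 19 listed, COL1A2, S100A4, S100A6 and PDGFRA. COL1A2 and S100A6 gave most of the sum, 4832 and 2286 RPM in Liver and 4506 and 5348 RPM in Stomach, and PDGFRA gave 21.1 and 9.73 RPM. The part of such markers in the somatic differences was not tested. In bulk libraries such as these, fewer cells of a type and less RNA per cell cannot be told apart.

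**Figure D1:**
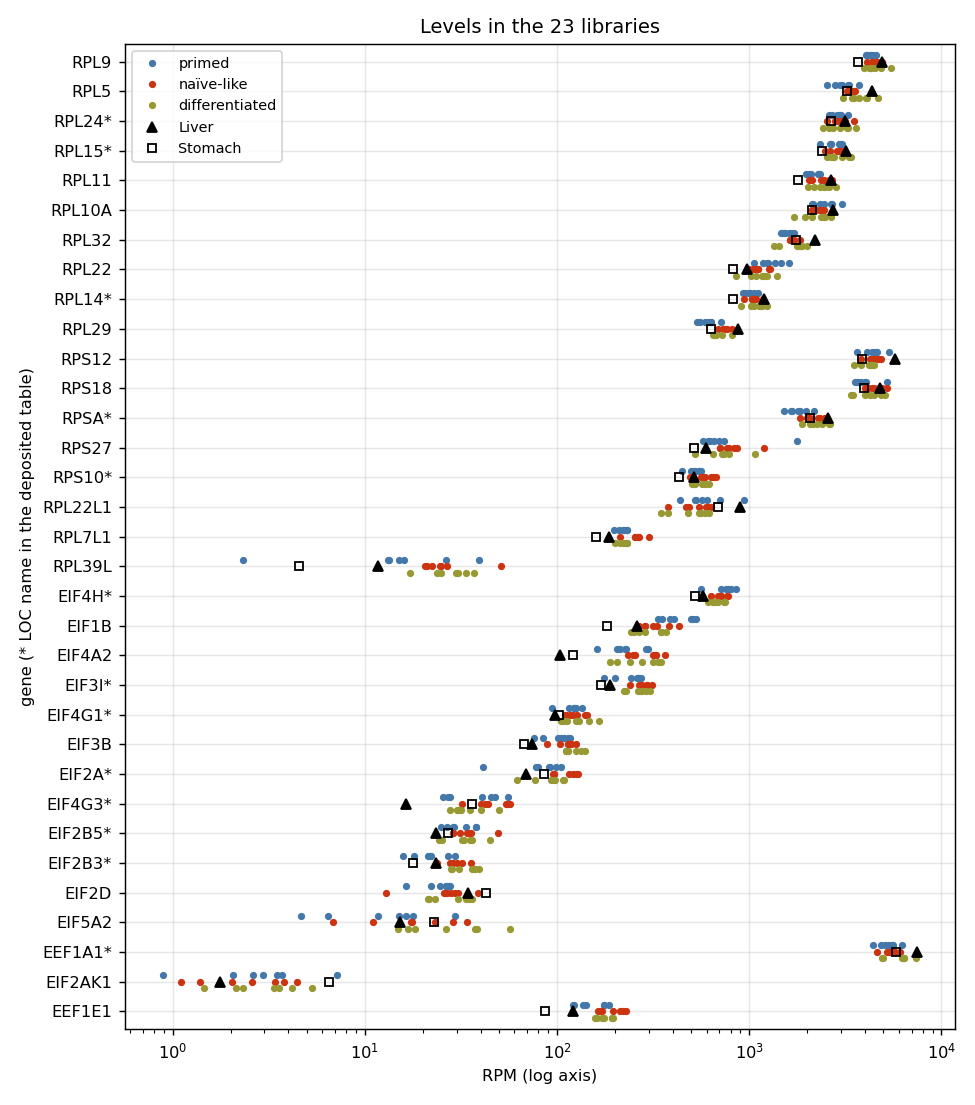
RPM of 20 of the 21 genes of the rule and of the 13 genes with LOC names (asterisk) in each of the 23 libraries, on a log axis, with 7 points for each medium and 1 for each somatic library. In PSCs the ribosomal proteins of the rule lie between 524 and 5500.3 RPM, and RPL39L, EIF5A2 and EIF2AK1 scatter most.

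The ribosomal proteins were among the most abundant genes analysed here. By mean RPM over the 21 PSC libraries, 8 of the 11 stood among the 20 most abundant of the 8415 genes and all 11 among the first 50. These ranks are within the genes analysed here and not within all transcripts. RPL9, a large subunit protein, had the highest mean of the 21 members, 4424 RPM, and of the genes outside the rule EEF1A1, the elongation factor that delivers aminoacyl-tRNA, was higher at 5598 RPM. These are reads at the 3′ end and were not divided by transcript length. RPL9 was also the steadiest member, with an SD of 0.11 on the log2 scale over the 21 libraries. EIF5A2, the paralog of the hypusine-carrying factor EIF5A, varied most among the members tested, with an SD of 0.84.

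Ribosomal proteins varied little between lines of the same medium. Their median SD within a medium was 0.14 on the log2 scale, against 0.22 for the 43 other tested genes at or above the level of the lowest ribosomal protein and 0.41 for all 2776 genes. For the 6 factors tested it was 0.28. These are descriptions of spread without a test, and the factors had lower levels. Ribosomal proteins often had fractional read numbers. RPM of RPL9 corresponded to a number of reads that was not whole (by more than 0.1 reads) in 22 of 23 libraries, that of RPS27 and RPL29 in 19 and that of RPL11 in 4, while EIF1B, EIF4A2, EIF5A2, EEF1E1 and RPL22L1 had whole numbers in every library. Fractional numbers can arise where reads are divided between near-identical copies, of which ribosomal proteins have many as processed pseudogenes, or between overlapping genes. Their source was not tested, and these values are uncertain by an unknown amount.

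Of the 21 members, 20 counted as expressed, that is above 15 RPM in at least 1 PSC library. EIF2AK1, the heme-regulated kinase that phosphorylates the initiation factor eIF2, was not tested. It lay between 0.886 and 7.14 RPM in PSCs, at 1 to 57 reads. RPL39L, EIF2D and EIF5A2 lay above that limit in some PSC libraries and below it in others.

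On conversion from the primed to the naïve-like condition, members were called about as often as genes in general, and the changes called were small. The 2 shares are not like for like, since members had a smaller error. Their median SE was 0.099, against 0.221 for all genes tested, and their median absolute difference was 0.17, against 0.31. In limma over all 2776 expressed genes, 4 of the 20 members passed an adjusted p of 0.05, against 19.2% of all genes, so that the share was close to the background. RPL29, RPL7L1 and EEF1E1 rose (11.1% of all genes did) and EIF1B fell (8.18% of all genes did). For none of the 34 genes did the 7 naïve-like libraries lie apart from the 7 primed libraries, as they did for 4.07% of all genes.

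RPL29, a small basic protein of the large subunit, had the lowest adjusted p. It measured 538, 612 and 715 RPM (lowest, median and highest line) in primed cells and 688, 738 and 811 RPM in naïve-like cells. The groups overlapped only through TRSK, which had the highest primed and the lowest naïve-like value and was the 1 line in which RPL29 was not higher. The difference was 0.29 (SE 0.07, 95% CI 0.14 to 0.45, adjusted p = 0.00866 by limma), or 1.22-fold. Without iPS-L3 the adjusted p was 0.0531, and without any other single line it stayed below the threshold.

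The other 10 ribosomal proteins did not pass. Their differences ran from −0.20 for RPL22 to 0.19 for RPS18, and the median over all 11 was 0.14, beside 0.06 for all genes tested. Differences were above 0 for 9 of the 11, and for RPS18 in 7 of 7 lines. RPL22, which also binds RNA outside the ribosome, measured 1059, 1249 and 1605 RPM in primed and 996, 1109 and 1284 RPM in naïve-like cells, and was lower in 5 of 7 lines (difference −0.20, SE 0.10, 95% CI −0.41 to 0.01, adjusted p = 0.163 by limma). The 95% intervals of the 4 small subunit proteins together reached from −0.26 to 0.54, the widest being that of RPS27.

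Among the paralogs, RPL7L1 rose slightly. RPL7L1, a relative of RPL7 that takes part in ribosome assembly, measured 199, 224 and 232 RPM in primed and 212, 262 and 301 RPM in naïve-like cells. It was higher in 7 of 7 lines, with overlapping groups (difference 0.22, SE 0.08, adjusted p = 0.0490 by limma). The call was lost on leaving out any single line except CMK9, with adjusted p up to 0.122.

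RPL39L, a paralog of RPL39 known from testis and tumours, measured 2.32, 15.0 and 39.1 RPM in primed and 20.6, 24.6 and 50.8 RPM in naïve-like cells. The lowest primed value, in iPS-L6, rested on 2 reads, which is under the floor of 3 reads. The difference of 0.81 (SE 0.36) had an adjusted p of 0.114, and of 0.0445 with the cell line as a block. RPL22L1, the paralog of RPL22, was lower in 5 of 7 lines but not past the threshold (difference −0.19, SE 0.16, adjusted p = 0.440 by limma).

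Of the genes with EIF or EEF names, 1 rose and 1 fell, and the one that rose is not an initiation or elongation factor proper. EEF1E1 (also called AIMP3), a small protein of the multi-synthetase complex, measured 120.5, 142 and 187 RPM in primed and 164, 195 and 228 RPM in naïve-like cells. It was higher in 6 of 7 lines, all but iPS-S6, and the groups overlapped. The difference was 0.37 (SE 0.11, 95% CI 0.13 to 0.60, adjusted p = 0.0281 by limma), or 1.29-fold, and the call was lost without iPS-L3, TRSK or iPS-S12 (adjusted p up to 0.0896).

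EIF1B, a close relative of the start codon selection factor EIF1, moved the other way. It measured 334, 407 and 530 RPM in primed and 267, 316 and 434 RPM in naïve-like cells and was lower in 7 of 7 lines, by between 0.01 and 0.69. The groups overlapped, with naïve-like iPS-L3 and iPS-S6 above the lowest primed lines, TRSK and iPS-S12. The difference was −0.38 (SE 0.13, 95% CI −0.65 to −0.11, adjusted p = 0.0455 by limma), or 0.768 times the primed level. It was lost without CMK6, iPS-L3, iPS-L6, CMK9 or iPS-S12 (adjusted p up to 0.124). Blocking by line gave an adjusted p of 0.00485.

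The other 4 factors tested did not pass. EIF4A2, an RNA helicase that unwinds the leader of messages, measured 161, 227 and 297 RPM in primed and 234, 315 and 364 RPM in naïve-like cells (difference 0.36, SE 0.15, adjusted p = 0.101 by limma). EIF3B, a scaffold subunit of the eIF3 complex, differed by 0.16 (SE 0.11), EIF2D, which can deliver the initiator tRNA outside the usual route, by 0.12 (SE 0.20) and EIF5A2 by 0.46 (SE 0.37). When each library was centred on the median of the genes that are no members, the calls of RPL29 (adjusted p = 0.0871 by limma), EEF1E1 (0.0694) and RPL7L1 (0.180) were lost with their directions kept, and EIF1B stayed past the threshold (0.0438). With quantile normalization the reverse held for EIF1B, whose call was lost (adjusted p = 0.0721 by limma), while RPL29, EEF1E1 and RPL7L1 kept theirs. The EIF1B call was also lost with no filter (0.0912), no trend (0.0757) and 2 conditions in the fit (0.0543), and in all in 9 of 17 alternatives. With the line as a block, 5 members passed in place of 4, against 26.1% of all genes.

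**Figure D2:**
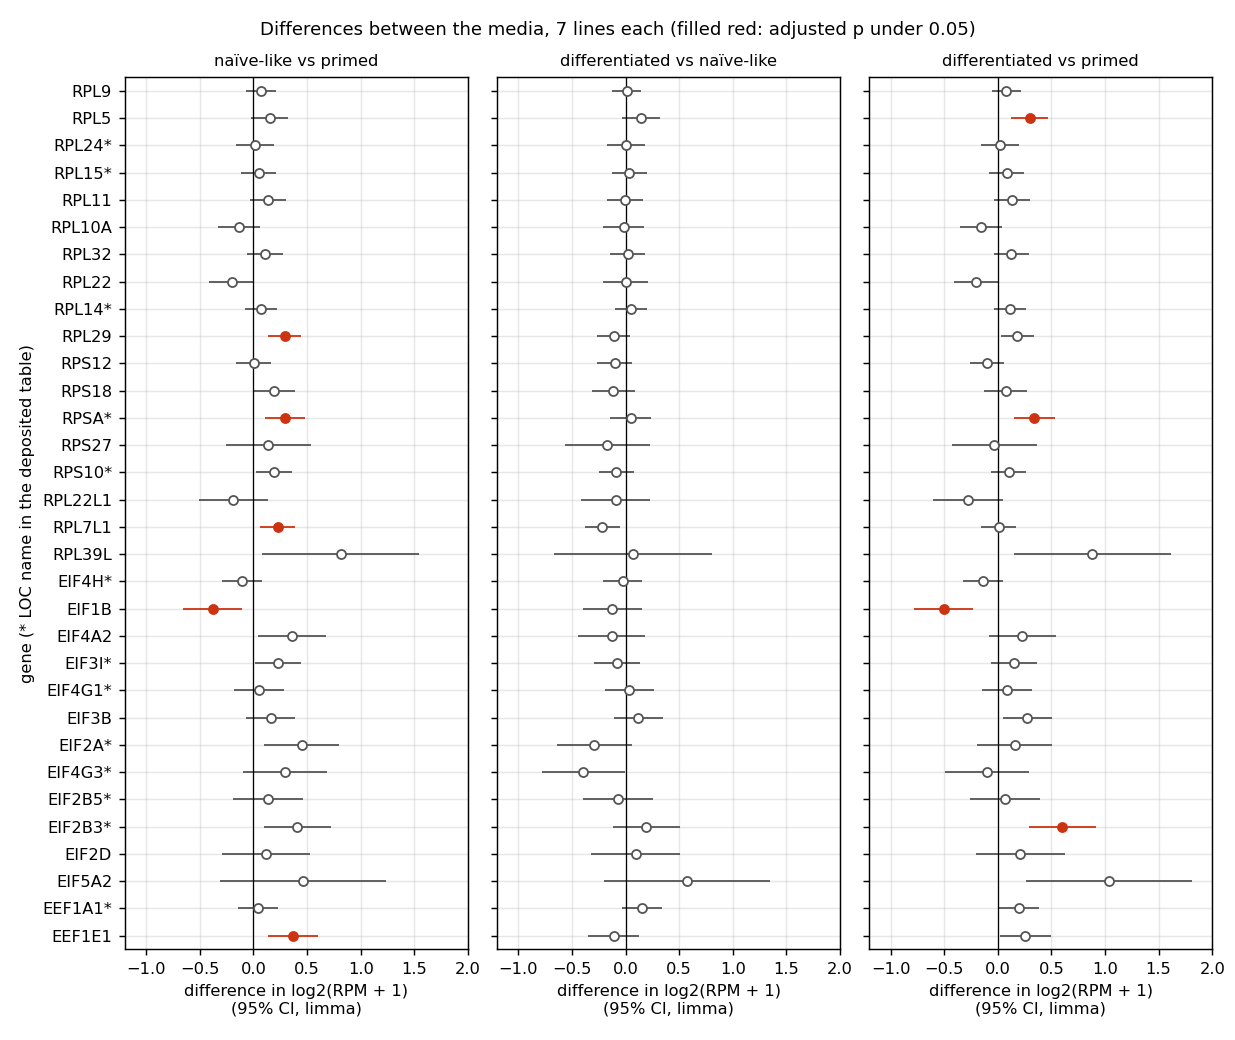
Differences in log2(RPM + 1) between media for the expressed genes, with limma's 95% confidence intervals over 7 lines a medium. Filled red points passed an adjusted p of 0.05, which 5 genes did in the left panel, 0 in the middle and 4 on the right. Ribosomal proteins lie closer to 0 than EIF5A2 in each panel, and closer than RPL39L in the left and right panels only.

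Withdrawal of LIF and doxycycline changed no member past the threshold. In differentiated against naïve-like cells 0 of 20 members were called by limma, against 14.1% of all genes (6.41% higher and 7.71% lower). At an unadjusted p under 0.05 there was 1 member, against 27.1% of all genes. This was RPL7L1, which measured 200.1, 228 and 233 RPM in differentiated cells and was lower in 6 of 7 lines (difference −0.22, SE 0.08, adjusted p = 0.0688 by limma). Without CMK9 it was called, with an adjusted p of 0.0410. Exact sign flips within the 7 lines gave an unadjusted p under 0.05 for 3 of the 20 members, against 32.2% of all genes. The same test gave 8 members in the conversion comparison, against 30.9%, and 5 between differentiated and primed cells, against 26.4%.

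The ribosomal proteins had differences between −0.17 (RPS27) and 0.14 (RPL5) on withdrawal, with a median of −0.02, equal to that of all genes tested at this precision. The 4 small subunit proteins were all below 0 and 4 of the 7 large subunit proteins above 0. No 95% interval of a ribosomal protein reached beyond −0.57 or 0.32. EIF5A2 had the largest difference of the members, 0.57, but with an SE of 0.37. No member's groups lay apart, as they did for 4.36% of all genes.

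Differentiated cells differed from primed cells in 2 of the 20 members, against 13.4% of all genes. RPL5 rose (6.27% of all genes did) and EIF1B fell (7.13% of all genes did). This comparison shares its primed libraries with the conversion comparison and its differentiated libraries with the withdrawal comparison, and no gene's groups lay apart, as they did for 3.24% of all genes.

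RPL5, which binds the small ribosomal RNA of the large subunit and, with RPL11, the p53 regulator MDM2, measured 2527, 3056 and 3712 RPM in primed and 3097, 3751 and 4657 RPM in differentiated cells. It was higher in 7 of 7 lines with overlapping groups, by 0.02 in iPS-L6 and by 0.68 in TRSK at the extremes. The difference was 0.30 (SE 0.09, 95% CI 0.12 to 0.47, adjusted p = 0.0207 by limma), or 1.23-fold, and the call was lost without iPS-L3, TRSK, CMK9 or iPS-S6 (adjusted p up to 0.100). The differences of its partner RPL11 were 0.13 (SE 0.08) here and 0.14 (SE 0.08) between naïve-like and primed cells, neither past the threshold.

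EIF1B measured 242, 288 and 371 RPM in differentiated cells and was lower than in primed cells in 7 of 7 lines. The groups still overlapped, since the highest differentiated line, iPS-L3, lay above the lowest primed lines. The difference was −0.50 (SE 0.13, 95% CI −0.78 to −0.23, adjusted p = 0.0120 by limma), or 0.705 times the primed level. Without CMK6 the adjusted p was 0.0691. Between naïve-like and differentiated cells EIF1B differed by −0.12 (SE 0.13).

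EIF5A2 measured 4.65, 15.1 and 29.5 RPM in primed, 6.82, 17.5 and 33.9 RPM in naïve-like and 14.9, 26.5 and 56.8 RPM in differentiated cells. It was higher in differentiated than in primed cells in 6 of 7 lines (difference 1.04, SE 0.37, adjusted p = 0.0664 by limma) and passed with the line as a block (adjusted p = 0.00574). Over all the alternatives its adjusted p lay between 0.00574 and 0.144. With the block, 4 members passed, EIF1B, RPL5, EIF5A2 and RPL39L, against 21.1% of all genes, and in differentiated against naïve-like cells 0 passed, against 19.8%.

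**Figure D3:**
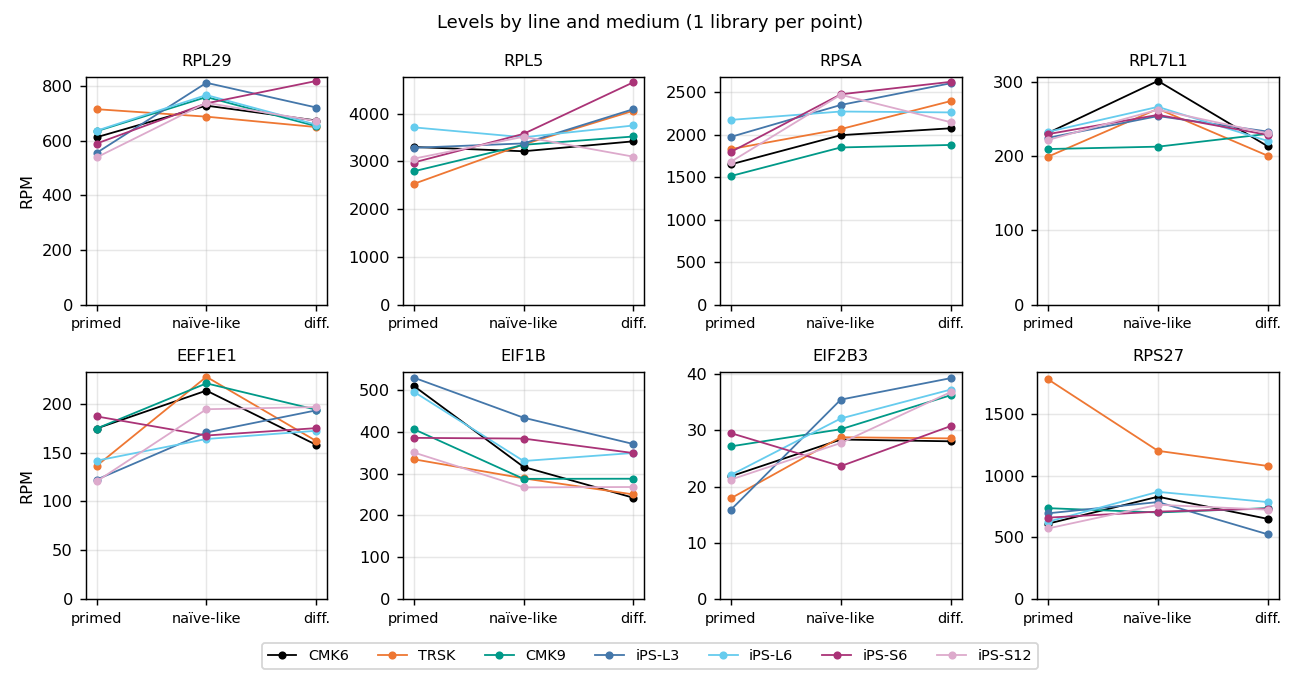
RPM of 8 genes in each of the 7 lines in primed, naïve-like and differentiated cells, 1 library per point and lines joining the libraries of 1 cell line. EIF1B is lower in naïve-like than in primed cells in every line, RPL7L1 peaks in naïve-like cells in 6 of 7 lines, and RPS27 in TRSK lies above the other 6 lines in all 3 media.

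The 13 genes with LOC names gave a like picture. RPSA, a small subunit protein that is also known as the laminin receptor, measured 1512, 1796 and 2172.5 RPM in primed, 1848, 2271 and 2473 RPM in naïve-like and 1878, 2260.5 and 2620.2 RPM in differentiated cells. It was higher than in primed cells in 7 of 7 lines in both media, with overlapping groups. The difference was 0.30 (SE 0.09, adjusted p = 0.0279 by limma) for naïve-like cells, lost without CMK6, iPS-L3, iPS-S6 or iPS-S12 (adjusted p up to 0.0932) and with centring (0.111), and 0.34 (SE 0.09, adjusted p = 0.0135) for differentiated cells, lost without iPS-S6 (adjusted p = 0.0597). RPM of RPSA was not a whole number of reads in 22 of 23 libraries.

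EIF2B3, the gamma subunit of the eIF2B complex that recharges eIF2 with GTP, measured 15.9, 21.8 and 29.5 RPM in primed and 28.1, 36.3 and 39.3 RPM in differentiated cells. It was higher in 7 of 7 lines, with groups that overlapped through iPS-S6, the highest primed line (difference 0.60, SE 0.15, 95% CI 0.29 to 0.91, adjusted p = 0.00870 by limma). This call held in each of the 17 alternative fits. EIF2B5, the catalytic subunit of the same complex, differed by 0.06 (SE 0.16) in that comparison.

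EEF1A1 measured 4419, 5284 and 6255 RPM in primed, 4605, 5357 and 6088 RPM in naïve-like and 4933, 6296 and 7389 RPM in differentiated cells. It passed between differentiated and primed cells only with the line as a block (difference 0.20, SE 0.09, adjusted p = 0.145, and 0.0331 with the block). Between naïve-like and primed cells EIF2A (difference 0.45) and RPS10 (difference 0.19), both higher in 7 of 7 lines, did not pass (adjusted p of 0.0645 and 0.0942 by limma) but did with the block (0.0413 and 0.0305). Over all 33 expressed genes with the 13 included, 5 passed between naïve-like and primed cells by limma, or 15.2%, against 19.2% of all genes. Between differentiated and naïve-like cells 0 passed, against 14.1%. Between differentiated and primed cells 4 passed, or 12.1%, against 13.4%.

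Summed over genes, ribosomal protein and factor reads kept about the same proportion in the 3 media. The 11 ribosomal proteins together took 27825 ± 2118 RPM in primed cells (SD, n = 7 lines), 29301 ± 1136 RPM in naïve-like cells and 28933 ± 2683 RPM in differentiated cells, or 2.78%, 2.93% and 2.89% of all reads. The sum was higher in naïve-like than in primed cells in 6 of 7 lines, by 1476 RPM on average. From naïve-like to differentiated cells it changed by −367 RPM on average, and by between −1327 and 190.4 RPM when 1 line at a time was left out, so that its direction depended on the lines included.

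The 7 factors together took 957 ± 132 RPM in primed, 982 ± 71.9 RPM in naïve-like and 938 ± 66.7 RPM in differentiated cells. EEF1E1, of the synthetase complex, made up 151, 194 and 179 RPM of these on average. The ratio of the ribosomal protein sum to the factor sum was 29.7 ± 5.95 in primed and 30.9 ± 1.93 in differentiated cells (SD, n = 7 lines), and in naïve-like cells it lay between 25.9 and 33.1. In primed cells it ran from 22.8 in CMK6 to 41.5 in TRSK. In the median of the single genes, factors had the larger differences, 0.26 between naïve-like and primed cells over 6 genes, EEF1E1 included. EIF1B was below 0 and the other 5 above. With the genes of LOC names added, the ratio depended on EEF1A1, which made up most of the factor sum. It then lay between 4.06 and 5.83 in PSCs, with Liver at 4.93 and Stomach at 4.64 inside that range. Without EEF1A1 it lay between 14.2 and 23.3 in PSCs, with Liver at 27.8 above that range and Stomach at 22.6 inside it. No test was made between the 2 classes.

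**Figure D4:**
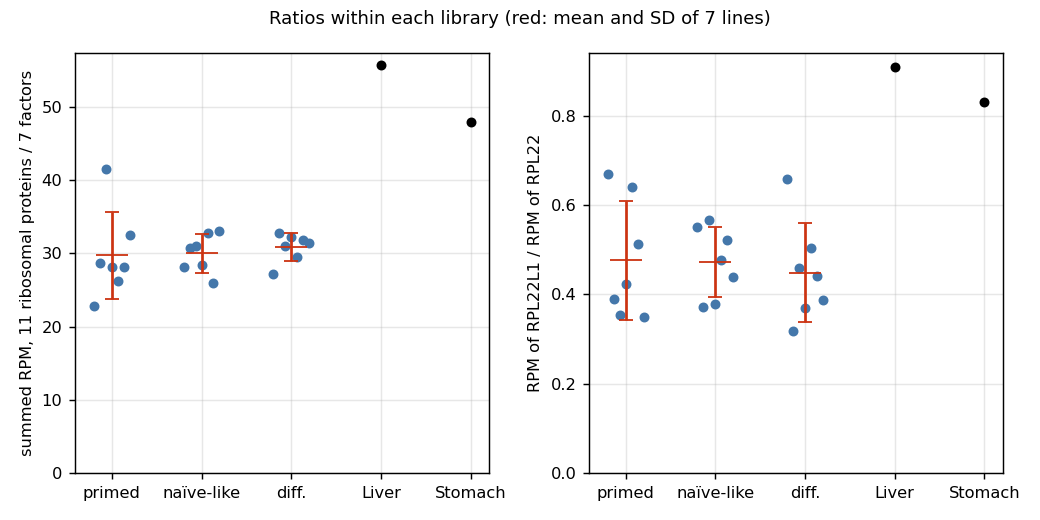
Left, summed RPM of the 11 ribosomal proteins divided by that of the 7 factors in each library, and right, RPM of RPL22L1 divided by RPM of RPL22, with the mean and SD of 7 lines in red and the single somatic libraries in black. Both somatic libraries lie above all 21 PSC libraries in both ratios, at 55.7 and 47.9 on the left and 0.911 and 0.831 on the right, but the left ratio does so only for the factors of the rule (with all factors, EEF1A1 included, Liver at 4.93 and Stomach at 4.64 are inside the PSC range).

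The response to the media did not differ past the threshold between ESC and iPSC lines. In the interaction test 0 of the 20 members, and 0.00% of all genes, were called by limma for any of the 3 comparisons. At an unadjusted p under 0.05 there were 0, 1 and 2 members in the conversion, withdrawal and differentiated against primed comparisons (133, 109 and 262 of all 2776 genes). RPS27, a small subunit protein with a zinc finger, was highest in TRSK in all 3 media, at 1781, 1201 and 1078 RPM in primed, naïve-like and differentiated cells, where the medians of the 7 lines were 660, 786 and 733 RPM.

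RPS18 and RPL39L also had their highest value in TRSK in all 3 media, and these were 3 of the 4 members with the same highest line in every medium. RPS18 in TRSK measured 5200, 5211 and 5104 RPM, against medians of 3835, 4448 and 4277 RPM. The fourth was EIF1B, highest in iPS-L3 each time. The reads of RPS27 and RPS18 were not whole numbers in 19 and 18 of the 23 libraries.

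The somatic libraries were set beside the primed iPSC lines made from the same cells, iPS-L3 and iPS-L6 for Liver and iPS-S6 and iPS-S12 for Stomach. With 1 somatic library per tissue the differences have no replicate check. For the somatic comparisons, all genes means the 2776 genes above 15 RPM in at least 1 PSC library. Genes present only in somatic cells were thus left out, which raises the shares of lower genes and reduces those of higher genes. Past 2-fold lay 2 of the 20 members in Liver, against 36.7% of all genes, and 2 in Stomach, against 31.8%. In Liver 1 was higher (9.94% of all genes) and 1 lower (26.8%), and in Stomach 0 were higher (9.80%) and 2 lower (22.0%). None of the 11 ribosomal proteins was past 2-fold in either tissue.

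Initiation factors had lower levels in the somatic cells. EIF4A2 measured 103 RPM in Liver and 121 RPM in Stomach, against 227 and 229 RPM in primed iPS-L3 and iPS-L6 and 212 and 206 RPM in primed iPS-S6 and iPS-S12 (differences of −1.13 and −0.78). Both values lay below the whole range of the 21 PSC libraries, 161 to 364 RPM. EIF1B measured 260.02 RPM in Liver, against 530 and 496 RPM (difference −0.98), and 182 RPM in Stomach, against 386 and 351 RPM (difference −1.01).

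EIF3B measured 74.5 RPM in Liver and 67.6 RPM in Stomach, both below the PSC range of 75.8 to 139 RPM. RPL7L1 measured 187 RPM in Liver and 159 RPM in Stomach. EIF4A2, EIF3B and RPL7L1 were the 3 members below the PSC range in both tissues, where 16.2% of all genes were. With the genes of LOC names, 9 of the 10 initiation factors were lower than their iPSC counterparts in both tissues, against 50.7% of all genes. In Liver alone 9 of 10 were lower, against 63.0% of all genes, and in Stomach 10 of 10, against 63.6%. The exception was EIF2B3 in Liver, at 23.5 RPM against 15.9 and 22.1 RPM. EIF4G3, a scaffold of the cap-binding complex, had the largest difference of these, 16.4 RPM in Liver against 47.6 and 40.7 RPM (difference −1.37).

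EIF5A2 and EIF2D did not follow that direction. EIF5A2 was the member past 2-fold that was higher in Liver, at 15.3 RPM against 6.47 and 4.65 RPM (difference 1.32), of which the last rested on 4 reads, and the Liver value lay within the PSC range. EIF2D measured 34.6 RPM in Liver and 42.5 RPM in Stomach, the latter above the PSC range of 12.8 to 38.8 RPM. EEF1E1 measured 122 RPM in Liver, against 122 and 142 RPM, and 86.6 RPM in Stomach, below the PSC range.

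Ribosomal proteins ran higher in Liver than in Stomach. All 11 had more RPM in Liver, as did 45.7% of all genes, with a median difference of 0.42. Against primed iPSCs the median was 0.25 in Liver and −0.07 in Stomach, beside −0.33 and −0.28 for all genes tested. In Liver 4 members lay above the PSC range (8.93% of all genes), among them RPL29 at 875 RPM, RPL32 at 2210.1 RPM and RPS12 at 5726 RPM, and 3 lay below it (27.1%). In Stomach 9 members lay below the PSC range (25.1% of all genes), 4 of them ribosomal proteins, and EIF2D was the 1 above it (11.6%).

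**Figure D5:**
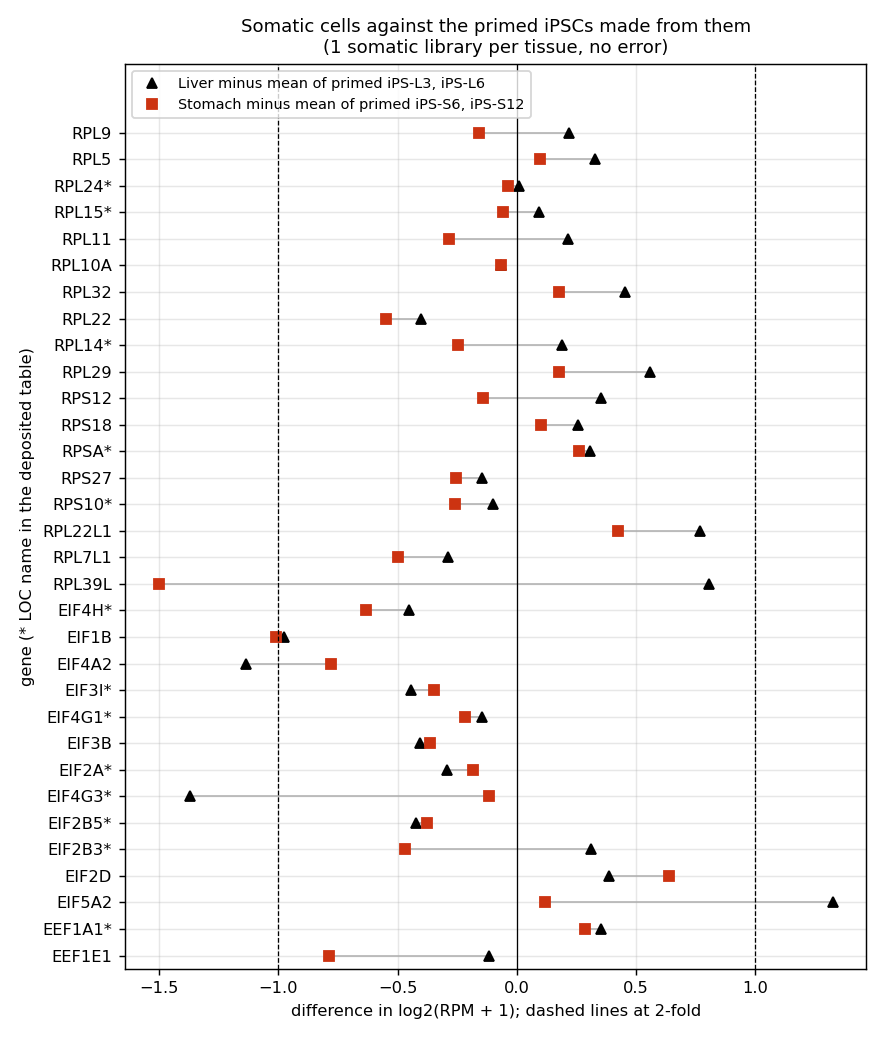
Differences in log2(RPM + 1) between each somatic library and the mean of the primed iPSC lines made from it, for the expressed genes, with triangles for Liver, squares for Stomach and dashed lines at 2-fold. Ribosomal proteins stay within the dashed lines, and the 10 initiation factors lie to the left of 0 except EIF2B3 in Liver (EIF2D and EIF5A2 are not counted among them).

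The paralogs RPL22 and RPL22L1 shifted against each other. RPL22 measured 979 RPM in Liver and 829 RPM in Stomach, the latter below the PSC range of 851 to 1605 RPM, while RPL22L1 measured 892 and 689 RPM, within the PSC range of 347 to 936 RPM. Their ratio within a library was 0.911 in Liver and 0.831 in Stomach and lay between 0.318 and 0.669 in the 21 PSC libraries, without a clear difference between media (0.477 ± 0.134, 0.473 ± 0.0792 and 0.449 ± 0.111 in primed, naïve-like and differentiated cells, SD, n = 7 lines). The ratio was chosen after the values of both genes were seen. RPL39L measured 4.54 RPM in Stomach, against 16.1 and 13.4 RPM in primed iPS-S6 and iPS-S12 (difference −1.50), and 11.7 RPM in Liver.

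Other genes of the translation apparatus were taken from lists, which were chosen with earlier results of these data known. Only listed genes present in the table could be followed, 21 for ribosome biogenesis. Of 20 ribosome biogenesis genes tested, 7 rose and 0 fell between primed and naïve-like cells, where 11.1% of all genes rose, and their median difference was 0.38. They were LYAR (0.80, SE 0.18, adjusted p = 0.00314 by limma), RRP9 (0.79), RRP1B (0.66), EBNA1BP2 (0.52), POLR1C (0.52, a subunit of RNA polymerases I and III), UTP11L (0.38) and GNL3 (0.37, known as nucleostemin). LYAR, RRP1B, EBNA1BP2, POLR1C and GNL3 were higher in 7 of 7 lines. UTP11L and GNL3 lay nearest to the threshold. Whether the calls of this and the other lists hold with centring or with 1 line left out was not examined. Their stability therefore cannot be set against that of the member calls. SBDS, which helps to release an anti-association factor from the new large subunit, fell on withdrawal of LIF and doxycycline by 1.27 (SE 0.23, adjusted p = 0.000589 by limma) and was lower in 7 of 7 lines. Between primed and differentiated cells EBNA1BP2 (0.44) and POLR1C (0.48) rose and SBDS (−0.95) fell, 3 of 20 genes beside 13.4% of all genes, and on withdrawal SBDS was the 1 of 20 called, beside 14.1%.

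Of 7 genes for aminoacyl-tRNA synthetases and their complex, AIMP2 (0.67, SE 0.16) and QARS1 (0.47, SE 0.13) rose in naïve-like cells, with adjusted p of 0.00521 and 0.0108 by limma. The other 5 did not pass, with differences from −0.26 (SARS) to 0.33 (GARS1), and EPRS1, a member of the multi-synthetase complex like AIMP2 and QARS1, differed by 0.03 (adjusted p = 0.913 by limma). In the mTORC1 list 13 genes were tested, among which LAMTOR2 rose (0.72) on conversion and RPS6KA1 fell (−1.13) on withdrawal. Of 6 targets of the integrated stress response, PPP1R15B (−0.35) and ATF3 (−0.96) fell on conversion and ATF3 rose by 1.25 on withdrawal. The fall of ATF3 lay at the threshold (adjusted p = 0.04999 by limma) and was seen in 5 of 7 lines. On conversion CTH (0.91), SESN2 (0.53) and ASNS (0.52) were higher and PHGDH (−0.19) lower without passing, and the median of the list was 0.16. Of 7 cell cycle genes, CENPF fell on conversion (−0.60). PABPC4, DHX36 and HBS1L, the translation genes outside the rule, did not pass in any comparison. Of all genes, 11.1% rose and 8.18% fell on conversion, and 6.41% rose and 7.71% fell on withdrawal. Whether these short lists departed from those shares was not tested.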

How the data were processed

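SC3-seq libraries were made from 1 ng total RNA of 21 PSC and 2 somatic samples. The authors trimmed reads with cutadapt 1.3, mapped them with TopHat 1.4.1 and used Cufflinks 2.2.0 per the submitters' notes, and deposited RPM values, 1 column a library. The deposited table is named for the macFas5 build. The last row of the table, cut short, was left out. RPM of the rows analysed made up 24.8 to 27.5% of a library. Depth (861000 to 7986000 reads) was recovered from the steps between low values and limits the precision of low genes. Names of 5564 rows, 991 of them of the LOC type, were matched by gene ID to RefSeq.

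Differences were taken on log2(RPM + 1), which understates changes of low genes. Genes with a value above 4 in at least 1 PSC library (15 RPM) were tested with limma 3.58.1 (R 4.3.3) with a mean-variance trend over the 21 PSC libraries, 3 condition means and Benjamini-Hochberg adjustment over 2776 genes, at 0.05. The fit was tested on simulated data. Tables were made with pandas 2.3.3 and numpy 2.4.6 (Python 3.11.15). Libraries of the same line, named by the labels, deviated together (mean correlation 0.269, against −0.0842 for different lines, over 0.1 in 18 of 21 pairs), and the line was a block in an alternative fit. The main fit and the other alternative fits, those with 1 line left out included, did not use this pairing. Calls lost in them were not checked with the pairing kept. Somatic libraries were compared by a 2-fold rule. Alternatives changed the pseudocount, filter, scaling, trend, block, conditions fitted, lines included, reference libraries and fold, and the test (exact sign flips).

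Named were the members past the threshold, the members past 2-fold in somatic cells, RPSA, EEF1A1, EIF5A2, RPL22, RPL22L1 and RPL39L, the most abundant, steadiest and most variable member, and the members with a deviant library. Other genes were named after their values were seen. Some genes that were tested and counted are not reported here by name or in the figures. Members and lists were chosen with earlier results of these data known.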

Additional observations from a re-analysis of the deposited data

Results flagged for a closer look

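A deviant library is one whose gap to its neighbour, as a share of the range of the 7 lines in 1 medium, exceeded Dixon's critical value for groups of that size. This held in 10 of 108 groups of 7, where chance gives about 1 in 20, and 6 of the 10 were TRSK libraries. RPS27 was highest in TRSK in primed (gap 0.778 of the range) and naïve-like cells (0.602), RPS18 in primed TRSK (0.642) and RPL39L in naïve-like TRSK (0.713). Primed TRSK was lowest for EIF2A (0.673) and EIF4H (0.591). Naïve-like iPS-L3 was lowest for EIF2D (0.632) and highest for EIF2B5 (0.604), and primed iPS-L3 was lowest for EIF4G1 (0.589). RPL39L was lowest in primed iPS-L6 (0.582), at 2 reads.

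On withdrawal of LIF and doxycycline, ESC and iPSC lines moved in opposite directions for RPL39L, by a difference of 0.62 (adjusted p = 0.999 for the interaction by limma), and for EEF1E1, by 0.45 (adjusted p = 0.999 by limma, unadjusted p = 0.0417). Neither difference passed the test.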

How the results depend on the processing

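The conversion count of 4 members became 1 with median centring of libraries (over all genes, of which 17.3% were called, or over genes that are no members, 17.4%), 2 without the trend (18.2%), 1 with only the 2 conditions in the fit (16.7%), 3 with a pseudocount of 10 (19.6%) or no filter (7.62%), 0 to 3 with 1 line left out (10.9 to 18.9%), and 8 by sign flips at an unadjusted p under 0.05 (30.9%). With the genes matched by ID, an alternative added after the data were seen, it was 5, and with the replicate block 5. Without iPS-L3 it was 0 (10.9% of all genes), without iPS-S12 it was 1 (14.1%), and without CMK6, TRSK or iPS-L6 it was 2. The withdrawal count of 0 became 3 by sign flips (32.2%) and 0 to 1 with 1 line left out (1 without CMK9). The count of 2 between differentiated and primed cells became 1 with no filter (5.27%), median centring (13.8%), no trend (12.8%) or 2 conditions (11.6%), 4 with the block (21.1%), 1 to 2 with 1 line left out (1 without CMK6, iPS-L3, CMK9 or iPS-S6), 5 by sign flips (26.4%) and 4 with genes matched by ID. The mean change of the factor sum there, −18.8 RPM, was 109 RPM without EIF1B. The Liver count of 2 became 1 against all 7 primed libraries or with a pseudocount of 10, 5 at 1.5-fold and 3 with either iPSC line left out. The Stomach count of 2 became 0 with a pseudocount of 10, 1 with centring, 5 at 1.5-fold and 1 to 3 with 1 iPSC line left out (1 without iPS-S6). The causes were not tested. No call of a member reversed. Depth limits RPL39L, EIF5A2 and EIF2AK1, whose lowest libraries hold 2, 4 and 1 reads.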
